A study of Mus musculus with 4 samples.

Results

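Array E+E (liver after a first and a second exposure to ethylbenzene) was compared with array P+E (liver after phosphate-buffered saline, PBS, and then ethylbenzene). Both arrays were chosen by their sample titles, and they are 2 of the 4 arrays of the series. Each carried the pooled liver RNA of 5 mice, so there was 1 value per gene and group, no spread between mice and no p-value. The genes described are the 11513 of 18193 named genes whose mean signal over the 4 arrays passed a low-level filter (a signal of about 120 in array units), with most weight on the 6859 well-expressed ones (a signal of about 404 or more).

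The mice were C57BL/6J, 2 months old, and their sex was not given in the labels. Ethylbenzene, an aromatic solvent and fuel component, was injected into the peritoneum at 7 mmol per kg. The first exposure was 2 injections 24 h apart of ethylbenzene or an equal volume of PBS, and after 7 days on normal feed a second exposure to ethylbenzene or PBS followed. Livers were taken 5 h after the second exposure. E+E and P+E shared the second exposure, to ethylbenzene, and differed only in the first. The other arrays were P+P (PBS both times) and E+P (ethylbenzene, then PBS), each a pool of 3 mice, and 10 µg of RNA from each pool was used. A pool of mice on 1 array gives their average and hides any mouse that stood apart.

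The liver clears solvents of this kind by oxidation through cytochrome P450 enzymes followed by conjugation, and at high doses it responds with acute phase, stress and metabolic programmes. Sterol synthesis is set by the transcription factor SREBP2, which INSIG proteins hold in the endoplasmic reticulum (ER) when sterols are plentiful. ER chaperone genes respond to the load of secretory protein through ATF6 and XBP1, and growth hormone acts on the liver through STAT5 and is damped by SOCS2 and CISH.

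The labelled tissue carried its defining markers, with Alb signals of 163590, 166300, 166300 and 172020. Signals are always given in the order P+P, E+P, P+E, E+E, on the brightest probe set of a gene. Markers of other tissues were not even between the pools. Of 6 skeletal muscle markers 4 passed the filter, and their summed signals were 677, 863, 3068 and 423, so that P+E was the highest and E+E the lowest. Of 5 mesothelial markers 2 passed, with sums of 387, 172, 1255 and 221. The 3′ to 5′ signal ratio of the Pcx control probe sets, a measure of how complete the labelled RNA was, came to 23.5, 7.21, 6.15 and 12.0, and that of the Gapdh control to 1.06, 0.91, 0.94 and 0.97. The 18S ribosomal RNA control, of 3 probe sets, was at 1872, 122, 145 and 182, with P+P far above the other arrays; P+P is the denominator of E+P over P+P and P+E over P+P. The 18 spike-in control probe sets had geometric means of 9868, 10252, 11971 and 15057. Whether RNA quality or other tissue in a pool had a part in the differences between E+E and P+E was not tested.

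Few genes with a clear signal lay far apart between the ethylbenzene-then-ethylbenzene and the PBS-then-ethylbenzene liver. All ratios are log2 ratios of quantile-normalized signals with 43.2 added to each signal, and the rule of size was 2-fold, a log2 ratio of 1. Among well-expressed genes 44 were at least 2-fold higher on E+E (0.641%) and 50 at least 2-fold lower (0.729%). At 1.5-fold there were 312 higher (4.55%) and 325 lower (4.74%). The standard deviation of the ratio over these genes was 0.35 around a median of -0.01. Over all 11513 genes past the filter, 458 were 2-fold higher (3.98%) and 459 lower (3.99%), but 649 of these 917 had a signal under the filter level on one of both arrays. Among the 4654 genes past the filter that were not well-expressed, 17.7% were 2-fold apart.

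**Figure D1:**
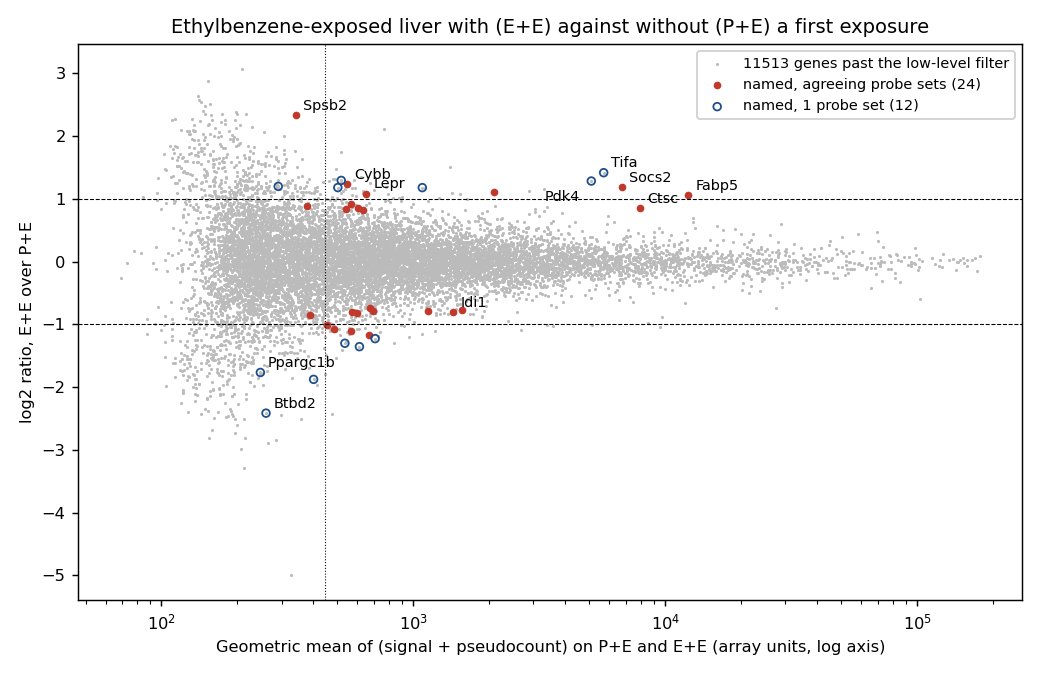
Log2 ratio of E+E over P+E (vertical axis) against the geometric mean of signal plus pseudocount on these arrays (horizontal log axis, array units), 1 grey point for each of the 11513 genes past the filter. Dashed lines mark 2-fold, the dotted line marks a signal of 404, filled red points are the 24 named genes with agreeing probe sets and open blue points the 12 named genes with 1 probe set. The spread is widest at low signals, and Tifa, Socs2, Fabp5 and Pdk4 stand above 2-fold at high signals.

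For scale, the comparisons of the second exposure had more well-expressed genes past 2-fold. P+E over P+P had 354 higher (5.16%) and 264 lower (3.85%), and E+E over E+P had 379 higher (5.53%) and 289 lower (4.21%). The other comparison of a first exposure, E+P over P+P, had 38 higher (0.554%) and 34 lower (0.496%). Both comparisons of the second exposure share an array with E+E over P+E, and E+P over P+P does not.

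Many genes are measured by more than 1 probe set, which gives a check on the measurement, although not on the mice, since all probe sets of a gene read the same pool on the same array. Of the 47 well-expressed genes at least 2-fold apart that had a second probe set past the filter, the next brightest probe set had the same sign in 25 (53.2%). The same count was 19 of 30 (63.3%) for E+P over P+P, 271 of 309 (87.7%) for P+E over P+P and 324 of 348 (93.1%) for E+E over E+P. The correlation between both probe sets over 3684 genes, a description across genes that are not independent replicates, was 0.10 for E+E over P+E and 0.58 for P+E over P+P. It was higher where both probe sets were bright. Over the 777 genes with both at or above the 90th percentile of all probe sets, r was 0.45 for E+E over P+E and 0.88 for P+E over P+P, and the sign was the same on both for 10 of the 14 genes past 1.5-fold (71.4%).

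**Figure D2:**
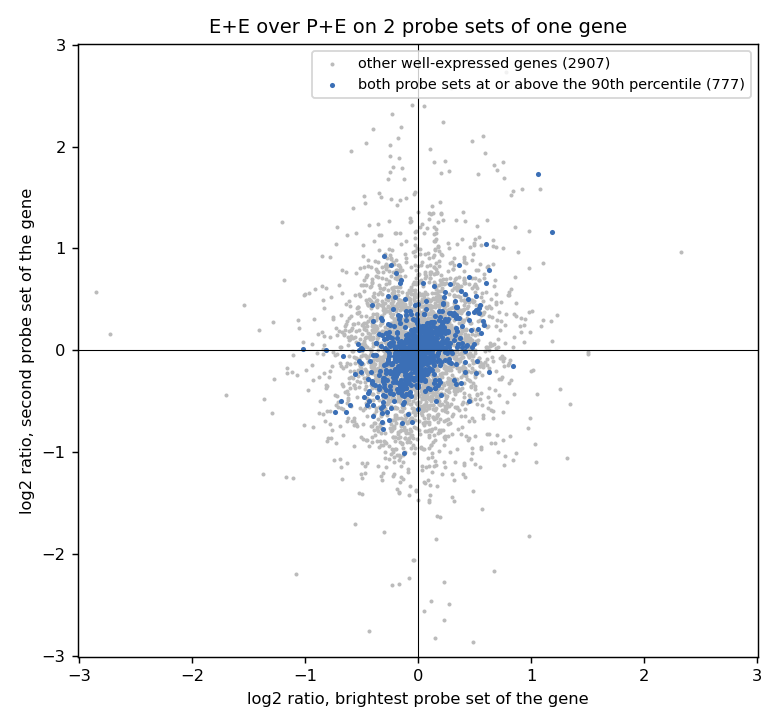
Log2 ratio of E+E over P+E on the brightest probe set of a gene (horizontal axis) and on its second brightest (vertical axis), 1 point for each of 3684 well-expressed genes. Blue points are the 777 genes with both probe sets at or above the 90th percentile of signal, where r was 0.45, and grey points are the others, which scatter widely off the diagonal.

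A gene was therefore called agreeing when it had at least 2 probe sets past the filter, all with the sign of the brightest, and at least 1 other was 1.5-fold apart or more. Of the 21 well-expressed genes 2-fold higher on E+E with more than 1 probe set, 11 had all of them on the same side of 0 and 6 were agreeing. Of the 26 lower ones, 9 had all on the same side and 4 were agreeing. At 1.5-fold, 36 of 153 higher and 23 of 154 lower genes were agreeing. Below, a count of probe sets in brackets gives those past the filter with the sign of the brightest, whatever the size of their ratios.

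The agreeing genes higher on E+E included Socs2, Fabp5, Ctsc, Lepr and Plscr1, in which E+E was the highest of the 4 arrays. Socs2, which encodes a feedback inhibitor of growth hormone signalling, had signals of 2354, 1975, 4429.5 and 10154. It was highest on E+E and next highest on P+E, with a log2 ratio of 1.19 and values from 0.79 to 1.19 on its 4 probe sets. Fabp5, a fatty acid-binding protein, had 4147, 7069, 8534 and 17814, in rising order from P+P to E+E, with a ratio of 1.06 (2 of 2 probe sets). Ctsc, the protease cathepsin C that activates granule enzymes of immune cells, had 5220.1, 8476, 5886 and 10672. Both arrays with a first ethylbenzene exposure were above both arrays without one, and its ratio was 0.85 (3 of 3 probe sets, up to 1.64). Lepr, the leptin receptor, had 333, 334, 405 and 904. It was close on the first 3 arrays and higher on E+E, at 1.08 (3 of 3). Plscr1, a phospholipid scramblase induced by interferon, had 492, 522, 1379 and 3007, with both ethylbenzene arrays above the others and a ratio of 1.10 (2 of 2).

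In another set of agreeing genes the P+E array was the one that stood low. Spsb2, an adaptor for a ubiquitin ligase, had 705, 858, 109 and 722. Its ratio of 2.33 came from a P+E signal under the filter level, and E+E was close to P+P. Cybb, the membrane subunit of the phagocyte NADPH oxidase, had 638, 977, 314 and 794 and a ratio of 1.23 (3 of 3 probe sets, from 0.35 to 1.23). Baz2a, a subunit of a nucleolar chromatin remodeller, had 588, 774, 366 and 732 and a ratio of 0.92. Txnrd3, a thioredoxin and glutathione reductase, had 547, 621, 234 and 469.6 and 0.88. In Baz2a and Txnrd3 P+E was the lowest of the 4 arrays on every probe set past the filter, but in Cybb only on the brightest of the 3; on the others P+P was the lowest. Smad5, which carries bone morphogenetic protein signals, had 771, 805, 432 and 799, with only P+E low and a ratio of 0.83 (3 of 3). The remaining higher genes by the same rule were Slc35e1 (0.85) and the nuclear pore gene Nup205 (0.84).

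The agreeing genes lower on E+E included Idi1 (-0.81), which is described with sterol synthesis. Lyrm2 had signals of 694, 463, 958 and 402 and a ratio of -1.17, with its 2 probe sets at -1.24 and -1.17. Narf, named for the prelamin A that its protein binds, had 903, 1013, 789 and 343 and -1.11, but its 3 probe sets ranged from -1.25 to -0.03. E+E was the lowest array in both. Sphk2, a sphingosine kinase, had 530, 429, 658 and 289 and -1.08 (2 of 2). Plekha8, a glycolipid transfer protein, had 802, 615, 599 and 276 and -1.01 (2 of 2). Lyst, the regulator of lysosome size that is mutated in beige mice, had 1411, 1599.8, 752 and 405, with both ethylbenzene arrays under the others on this probe set and a ratio of -0.83 (3 of 3). Zfand2a, an arsenite-inducible gene of protein quality control, had 529, 508, 866 and 485 and -0.78 (3 of 3); here P+E was the high array and the other 3 were close together. Fam214a had 3269, 3236, 2009.8 and 1153 and -0.78 (2 of 2). Gpaa1, part of the enzyme that attaches lipid anchors to proteins, was at -0.84, and Ccdc141, Pphln1 and the methionine salvage gene Mri1 lay between -0.81 and -0.75.

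**Figure D3:**
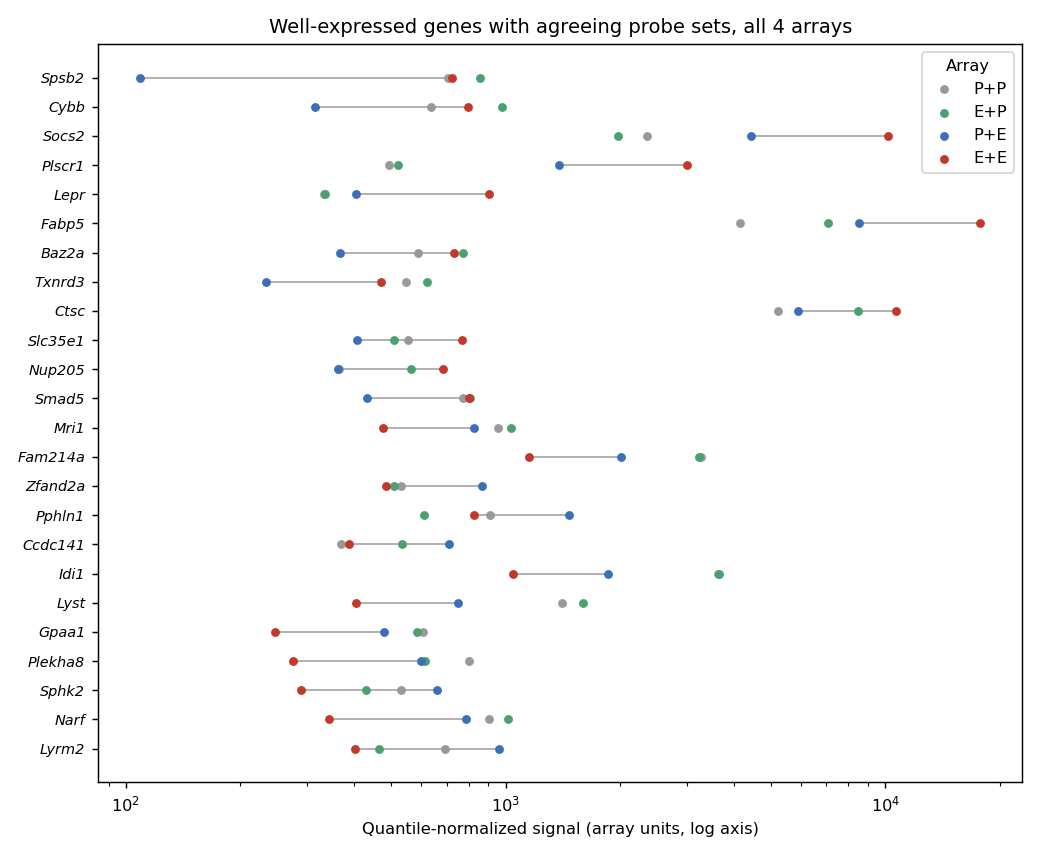
Quantile-normalized signals on all 4 arrays (horizontal log axis, array units) of the 12 highest and 12 lowest well-expressed genes with agreeing probe sets, in order of their ratio. Points are single pooled arrays coloured by group, and a grey line joins P+E and E+E. E+E is the outermost point for Socs2, Fabp5 and Lepr, and for Spsb2 the P+E point alone is far to the left.

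Over all agreeing genes at 1.5-fold, E+E was the highest of the 4 arrays in 26 of the 36 higher ones (72.2%) and P+E the lowest in 20 (55.6%), with both true in 10. Of the 23 lower ones, E+E was the lowest array in 18 (78.3%) and P+E the highest in 12 (52.2%). For all 312 and 325 well-expressed genes at 1.5-fold, E+E was outermost in 59.3% and 80.0% and P+E in 69.9% and 56.0%. Over all well-expressed genes above 0, E+E was the highest array in 45.1% and P+E the lowest in 54.9%, and over those below 0 the shares were 61.3% and 41.3%. The P+E share of the agreeing higher genes was thus near that of all well-expressed genes above 0.

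Some well-expressed genes are read by a single probe set past the filter and have no such check: 23 of those at least 2-fold higher and 24 of those lower. Tifa, an adaptor that links receptors to NF-kB, had signals of 266, 657, 3446 and 9265, in rising order from P+P to E+E, and a ratio of 1.42. Pdk4, the kinase that shuts off pyruvate dehydrogenase in fasting, had 112, 59, 3219.7 and 7895. It was high on both ethylbenzene arrays, higher on E+E, with a ratio of 1.28. Ppan and Rpp21, which act in ribosome assembly and in transfer RNA processing, were at 1.29 and 1.18. Plekhf1 was at 1.20 and the kinesin gene Kifc3 at 1.18. In the other direction, Btbd2 had 602, 924, 558 and 69.4 and -2.42, with an E+E signal under the filter level. Ppargc1b, a coactivator of mitochondrial and lipid genes, had 691, 1017, 413 and 90.7 and -1.77, also with E+E under that level. Ces5a, a carboxylesterase, was at -1.88, the sphingomyelinase gene Smpd2 at -1.36, the semaphorin receptor gene Plxnd1 at -1.30 and Clasrp at -1.23.

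The rule of size had no gap at its edge. Creld2 (1.002) and Atm (1.003) lay just inside 2-fold higher, and Nudt16l1 (0.99, but -0.66 without the probe sets that can match several transcripts) and Smarcc1 (0.99) just outside. Inca1 (-1.01) and Csad (-1.01) lay just inside 2-fold lower, and Fgd6 (-0.999) and Dusp19 (-0.99) just outside.

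Ratios were less scattered at or above the 90th percentile of probe sets (signals of 1441 or more, a level chosen after the data were seen). There the standard deviation was 0.24, and 34 of 2885 genes (1.18%) were at least 1.5-fold higher on E+E and 47 (1.63%) lower. The same rule picked 81 genes in either direction for E+E over P+E, 107 for E+P over P+P and 574 for P+E over P+P. At 2-fold, 6 genes were higher: Ipo4 (1.504, 1 of 2 probe sets), Tifa, Socs2, Pdia4, Fabp5 and Creld2. The 5 lower ones were the sterol gene Msmo1, the glucose-6-phosphatase gene G6pc, Cndp2 (-1.02, 1 of 2 probe sets), the lysosomal nuclease gene Dnase2a (-1.01) and Csad, whose enzyme makes taurine. Close to them were Cyp8b1, G0s2 (-0.97), an inhibitor of fat breakdown, and Klf15 (-0.95), a transcription factor of amino acid catabolism.

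Gene lists were then read as a whole, by the count of members above and below 0 and the median ratio, beside all genes past the filter, of which 49.7% were above 0 and 50.1% below with a median of 0.00. No list was tested. Sterol synthesis was one-sided: of 27 genes 22 passed the filter (the others were not analysed here), 1 was above 0 and 21 were below, and the median was -0.33. At least 1.5-fold lower were 7 members (31.8%), against 10.5% of all genes past the filter, and none was 1.5-fold higher (10.9% of all genes). In E+P over P+P, which shares no array with this comparison, 11 of the same 22 were above 0 and 11 below, with a median of -0.04 (all genes: 48% above and 51.9% below).

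The regulators of the pathway lay on both sides of 0. Srebf2, which encodes SREBP2, had signals of 708, 307, 746 and 833 and a ratio of 0.15, the only member above 0 (1 of 2 probe sets). Insig2, an anchor of SREBP2, had 2250.5, 2523, 35598 and 21388. It was far higher on both ethylbenzene arrays, with E+E under P+E at -0.73 (3 of 3 probe sets, -0.85 to -0.61). Insig1, itself a target of SREBP2, had 7879, 8623, 4121 and 2798 and -0.55. Of the early enzymes, Hmgcs1, which makes HMG-CoA, had 7734, 7758, 9239.9 and 5906. E+E was the lowest array, and the ratio was -0.64 (4 of 4 probe sets, -1.18 to -0.54). Mvk, mevalonate kinase, was at -0.58. Idi1, isopentenyl diphosphate isomerase, had 3631, 3659.6, 1862 and 1046, lower on both ethylbenzene arrays and lowest on E+E, at -0.81 (2 of 2). Fdps, farnesyl diphosphate synthase, was at -0.58, while Fdft1, the first enzyme committed to sterols, was at -0.04 with 3607, 4190.2, 1859.8 and 1813.

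The late enzymes from squalene onward were lower to different degrees. Sqle, squalene epoxidase, had 1503, 1334, 1178 and 624 and -0.87. Msmo1, which removes methyl groups from sterol intermediates, had 6680.2, 7844, 3867 and 1783. Both ethylbenzene arrays were under the others and E+E was the lowest, with the only ratio past 2-fold in the list, -1.10 (1 probe set). Nsdhl, of the same demethylation, had 3875, 2444, 2508 and 1333 and -0.89. Dhcr7, the last step of cholesterol synthesis, had 2191, 2412, 2272 and 1323; the first 3 arrays were close together and E+E was lower, at -0.76. Cyp51 (-0.12), Ebp (-0.11) and Tm7sf2 (-0.18) were closer to 0.

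**Figure D4:**
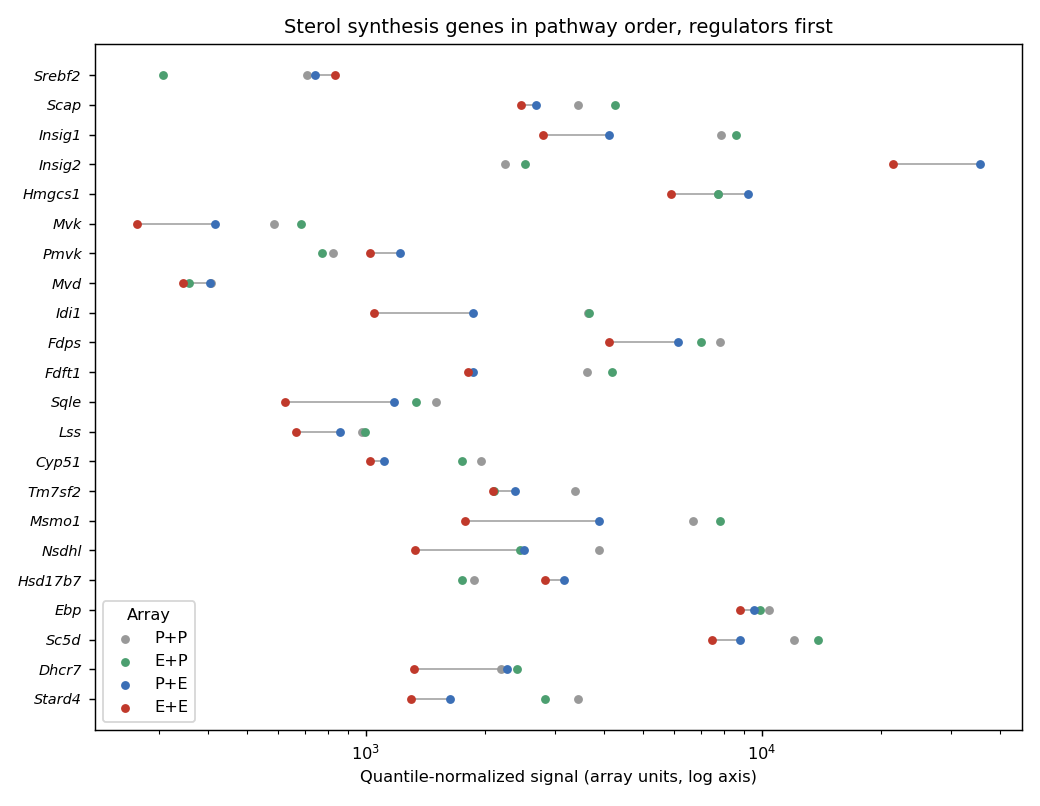
Quantile-normalized signals on all 4 arrays (horizontal log axis, array units) of the 22 sterol genes past the filter, regulators first and enzymes in pathway order, with a grey line joining P+E and E+E. The E+E point lies left of the P+E point for every gene shown except Srebf2, and Insig2 alone has both ethylbenzene points far to the right.

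Promoters of Hmgcs1, Idi1 and Msmo1 are printed as 3 examples of enzyme genes below 0: the ratios of Hmgcs1 and Idi1 were alike in sign on all their probe sets, and Msmo1 had the only ratio past 2-fold. They are the 250 bases before the start site in RefSeq annotation of GRCm38.p6, at chr13:119690101-119690350 on the plus strand (Hmgcs1), chr13:8885356-8885605 on the plus strand (Idi1) and chr8:64733579-64733828 on the minus strand (Msmo1). Capitals mark the CCAAT box (CCAAT, or ATTGG where it lies on the other strand) and, in Hmgcs1, 1 copy of TCACNCCAC, the classical sterol regulatory element.
Hmgcs1: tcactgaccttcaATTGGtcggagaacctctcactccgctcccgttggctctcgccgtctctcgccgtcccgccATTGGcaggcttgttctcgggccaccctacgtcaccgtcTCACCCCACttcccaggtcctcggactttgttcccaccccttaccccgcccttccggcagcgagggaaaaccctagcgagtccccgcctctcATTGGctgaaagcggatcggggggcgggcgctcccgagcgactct
Idi1: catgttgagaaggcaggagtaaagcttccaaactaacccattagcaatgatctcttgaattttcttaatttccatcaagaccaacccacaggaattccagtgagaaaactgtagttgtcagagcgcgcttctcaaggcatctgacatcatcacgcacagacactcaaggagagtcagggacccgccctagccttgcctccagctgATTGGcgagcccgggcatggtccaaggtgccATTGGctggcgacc
Msmo1: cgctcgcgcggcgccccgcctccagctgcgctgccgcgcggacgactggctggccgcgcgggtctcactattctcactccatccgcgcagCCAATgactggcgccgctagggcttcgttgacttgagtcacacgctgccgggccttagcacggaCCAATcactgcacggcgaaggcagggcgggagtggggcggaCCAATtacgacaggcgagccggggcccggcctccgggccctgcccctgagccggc
Of 18 list members with a promoter in the table, 17 (94.4%) held CCAAT on either strand within 250 bases, against 40.0% of 9326 genes past the filter. The box was not particular to this list. It was in 16 of 18 ER chaperone and unfolded protein response genes (88.9%), a list that leaned the other way. It was also in 10 of 16 genes of gluconeogenesis and amino acid catabolism (62.5%). TCACNCCAC was found in 1 of the 18 (5.56%), Hmgcs1, against 1.33%. The ER chaperone list had the same share, 1 of 18 (5.56%). That gene was Hsp90b1, which was higher on E+E (0.49), and the match is not marked in its promoter printed below. The matches in Hmgcs1 began at -237, -176, -137 and -45 from the start site. A match is a string of letters and does not show that a factor was bound.

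Fatty acid and triglyceride synthesis leaned the same way, with 7 members above 0 and 17 below of 24 and a median of -0.23 (0.00 in E+P over P+P). Lpin2, a phosphatidate phosphatase, had signals of 10267, 10159, 4437 and 2743. Both ethylbenzene arrays were lower and E+E the lowest, at -0.69 (3 of 3, from -0.69 to -0.19). Me1, malic enzyme, which supplies NADPH, had 13663, 8914, 15087 and 9488. The arrays with a first ethylbenzene exposure were below those without, at -0.67 (-0.67 and -0.05 on its 2 probe sets) and -0.61 in E+P over P+P. Acss2, acetyl-CoA synthetase, was at -0.56 (-0.23 on its other probe set). Fasn, fatty acid synthase, was at -0.32, while Scd1, the stearoyl-CoA desaturase, was at 0.02. None of the 24 was 2-fold apart.

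Gluconeogenesis and amino acid catabolism had 2 members above 0 and 15 below of 18, with a median of -0.32. G6pc, glucose-6-phosphatase, the last step of glucose release, had 16133, 7977, 13685 and 6625. Both arrays with a first ethylbenzene exposure were lower, at -1.04 in E+E over P+E and -1.01 in E+P over P+P, on its single probe set. Pck1, the entry enzyme of gluconeogenesis, had 35468, 40929, 25116 and 19056 and -0.40 (2 of 2). Foxo1, a transcription factor of fasting, was at -0.45 (3 of 3, from -0.45 to -0.10), the proline-degrading Prodh at -0.56 and Cth, of cysteine synthesis, at -0.48. Ppargc1a, a coactivator of gluconeogenic genes, was at -1.59, but its other probe set lay at 1.82, and the mean of both was 0.12. Of the 7 urea cycle genes 6 were below 0, with a median of -0.43 (-0.25 over the well-expressed ones); Arg1, arginase, had 55412, 61084, 76318 and 56773 and -0.43, Asl -0.51, and Cps1, the first enzyme, -0.07.

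ER chaperones and unfolded protein response genes went the other way. Of 21 genes 15 were above 0 and 6 below, with a median of 0.22. In E+P over P+P 6 were above and 15 below, with a median of -0.33. Pdia4, a disulfide isomerase, had 2474, 1955, 2158 and 4887, with E+E the only high array and a ratio of 1.16 (1 probe set). Creld2, an ER-resident isomerase, had 2207, 1139, 1110.4 and 2268. P+P and E+E were high and the other arrays low, which gave 1.002 here and -0.93 in E+P over P+P. Hsp90b1, the ER form of HSP90, had 11594, 14119, 14303 and 20175 and 0.49 (2 of 2), Pdia3 0.46, and Dnajb9, a co-chaperone, 0.44. The central chaperone Hspa5 (BiP) had 22225, 15753, 20473 and 20375 and -0.01, with E+E and P+E almost equal. Probe sets of some members lay on both sides of 0. Hyou1, counted below 0 on its brightest probe set, ranged from -0.17 to 1.88 on 3 probe sets. Canx, counted above 0, ranged from -0.76 to 0.37 on 3. At least 1.5-fold higher were 2 of the 21 (9.52%), near the 10.9% of all genes, so the list leaned by many small ratios.

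Promoters of Creld2, Hsp90b1 and Pdia4 are printed because they had the 3 highest ratios of the list on the brightest probe set of a gene. They are again 250 bases from RefSeq on GRCm38.p6, at chr15:88819396-88819645 on the plus strand (Creld2), chr10:86705445-86705694 on the minus strand (Hsp90b1) and chr6:47813513-47813762 on the minus strand (Pdia4). Capitals mark the ER stress response element, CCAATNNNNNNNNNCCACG on either strand, in Creld2 and Hsp90b1; Pdia4 held no full element in this window, and its CCAAT boxes, of which the element contains 1, are marked instead.
Creld2: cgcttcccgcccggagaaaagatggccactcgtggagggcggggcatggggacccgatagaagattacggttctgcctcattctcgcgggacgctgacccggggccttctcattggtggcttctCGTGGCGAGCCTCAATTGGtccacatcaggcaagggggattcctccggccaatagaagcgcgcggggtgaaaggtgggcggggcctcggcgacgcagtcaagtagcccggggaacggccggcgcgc
Hsp90b1: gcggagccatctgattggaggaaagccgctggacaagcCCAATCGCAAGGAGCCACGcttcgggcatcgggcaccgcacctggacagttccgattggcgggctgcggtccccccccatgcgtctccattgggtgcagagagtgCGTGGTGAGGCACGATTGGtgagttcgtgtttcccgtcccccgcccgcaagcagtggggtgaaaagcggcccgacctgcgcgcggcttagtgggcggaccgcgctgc
Pdia4: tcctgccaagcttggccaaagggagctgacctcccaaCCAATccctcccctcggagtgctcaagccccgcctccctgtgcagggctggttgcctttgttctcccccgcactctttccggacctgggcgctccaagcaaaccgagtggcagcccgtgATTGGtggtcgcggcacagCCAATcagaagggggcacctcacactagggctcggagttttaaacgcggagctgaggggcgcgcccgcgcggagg
The element was present in 8 of 18 list members with a promoter (44.4%), against 15 of 9326 genes past the filter (0.161%). Those 8 were Hspa5, Hsp90b1, Dnajc3, Pdia6, Calr, Canx, Creld2 and Syvn1, and their ratios ran from -0.01 to 1.002. Hspa5 was the only one of them not above 0.

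The integrated stress response list, which holds the targets of ATF4, had 21 genes above 0 and 11 below of 32. Its median was 0.18, and 0.09 over the 20 well-expressed members. At least 1.5-fold higher were 10 (31.2%, against 10.9% of all genes) and at least 1.5-fold lower 4 (12.5%, against 10.5%). At 2-fold there were 3 higher (9.38%, against 3.98% of all genes) and 3 lower (9.38%, against 3.99%). Chac1, which degrades glutathione, had 932, 1110.4, 2942 and 5078 and 0.78, with E+E the highest array. Ddit3 (CHOP), a transcription factor of prolonged stress, had 775, 553, 232 and 485 and 0.94; P+E was the lowest array and E+E did not reach P+P. Trib3 was at 0.89 (0.27 on its other probe set) and the mitochondrial folate enzyme gene Mthfd2 at 1.17 (0.41 on its other probe set). Phgdh, of serine synthesis, had 142, 294, 682 and 54.3 and -2.89, with E+E under the filter level. Eif2ak3 (PERK), the ER-resident kinase of this response, was at -1.17, whereas Eif2ak4, also on the list, was at 1.13. Sesn2 was at -1.17 with an E+E signal under the filter level. Its other probe set lay at -0.0013, and the mean of both was -0.59.

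In the insulin, growth hormone and IGF axis 16 of 22 genes were above 0 and 5 below, with a median of 0.27 (-0.06 in E+P over P+P). With the mean of the probe sets it was 0.08. Socs2 led the list. Cish, the other feedback inhibitor of STAT5, had 1132, 2338, 1811 and 2604. Both arrays with a first ethylbenzene exposure were above both without, at 0.51 and, in E+P over P+P, 1.02. Stat5a was at 0.49 (2 of 2) and Trib1, a pseudokinase that tunes lipid synthesis, at 0.64. The growth hormone receptor Ghr was at 0.04, and Foxo3, a transcription factor restrained by insulin, at -0.62 (2 of 2). Igfbp1, which binds IGF1 and is strongly induced in stressed liver, had 3152, 5900.1, 94724 and 94724; both ethylbenzene arrays held the same rank, which quantile normalization turns into the same value.

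**Figure D5:**
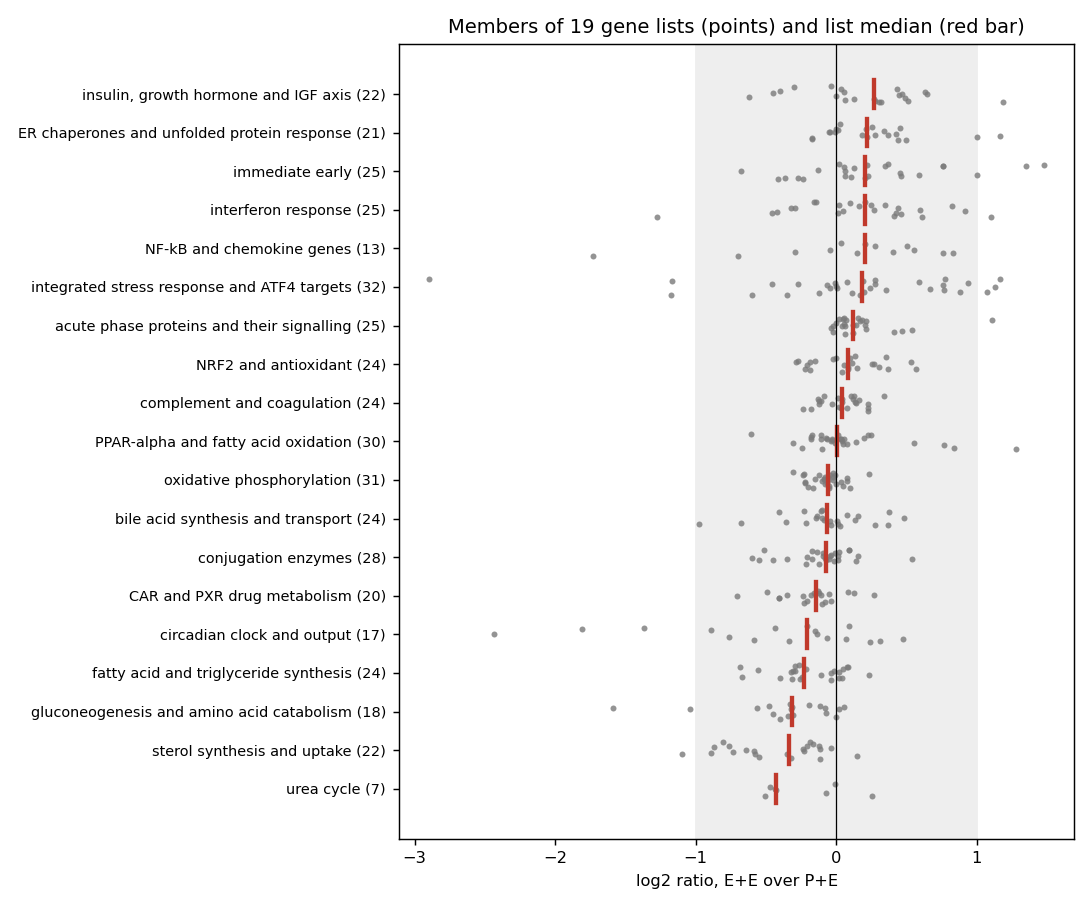
Log2 ratios of E+E over P+E (horizontal axis) of the members past the filter of 19 gene lists, with the number of members in brackets. Grey points are genes, red bars list medians, and the shaded band spans 2-fold in each direction. Urea cycle, sterol synthesis, and gluconeogenesis and amino acid catabolism have medians of -0.43, -0.33 and -0.32, and the insulin, growth hormone and IGF axis 0.27; the order of the lists depends on the processing.

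Acute phase genes stood slightly higher on E+E than on P+E, with 21 of 25 above 0, 3 below and a median of 0.12. Lcn2, which binds bacterial iron carriers, had 96.8, 620.1, 58918 and 81707 and 0.47. Socs3, the feedback inhibitor of IL-6 signalling, had 621, 1292, 10829 and 15753, in rising order from P+P to E+E, at 0.54 (3 of 3). Crp was at 0.41 with 14216, 16725, 22496 and 30006, whereas Saa1, a serum amyloid A, had 2832, 2145, 154610 and 152560 and -0.02. Ratios of transcripts this abundant are compressed by the normalization. Il1rn, the interleukin 1 receptor antagonist, was at 1.11 at low signals of 187, 229, 142 and 355, and was the only member past 2-fold. Its other probe set was at 0.16, with signals of 133, 26.1, 468 and 527. NF-kB and chemokine genes were above 0 in 9 of 13 (median 0.20), with Icam1, an adhesion molecule, at 0.83 and Nfkb2 at -1.73. Interferon response genes were above 0 in 18 of 25 (median 0.21), from Dhx58 at 1.10 to Ddx58 (RIG-I) at -1.28 (-0.28 on its other probe set).

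Drug metabolism was close between both arrays. Genes of the receptors CAR and PXR were below 0 in 17 of 20, with a median of -0.14 and none past 2-fold; in E+P over P+P 15 were above 0 (median 0.12). Cyp2b10, the typical CAR target, had 126, 388, 33311 and 25103. It was high on both ethylbenzene arrays and somewhat lower on E+E, at -0.41 (3 of 3). Cyp2c55 was at -0.71, and Nr1i2, which encodes PXR, at -0.49 (its other probe set at -0.05). Cyp3a11 was at -0.08. Cyp2e1, the main oxidase of small solvents, had 140860, 144270, 132380 and 134730 and 0.03, and the list of enzymes for ethylbenzene and its alcohols and aldehydes had a median of 0.01 (7 above 0, 6 below). Conjugation enzymes were below 0 in 20 of 28, with a median of -0.07, among them the glutathione transferases Gstm2 (-0.55) and Gstm3 (-0.45). NRF2 and antioxidant genes were above 0 in 16 of 24 (median 0.08). Hmox1, heme oxygenase, had 469.7, 404, 4508 and 5436 and 0.27, and Nqo1 was at -0.15.

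Clock genes were below 0 in 12 of 17, with a median of -0.21, and 3 were at least 2-fold lower (17.6%, against 3.99% of all genes). Dbp, a clock output factor, had 5653, 5855, 486 and 162, low on both ethylbenzene arrays and lowest on E+E, at -1.37 (-0.47 on its other probe set). Ciart had 1441, 916, 291 and 18.6 and -2.43, and Per1 751, 465, 209 and 28.6 and -1.81; both had an E+E signal well under the filter level, so the size of their ratios depends on the pseudocount. Nr1d1, also on the list, was at 0.48, whereas Nr1d2 lay between -0.44 and -0.28 on its 2 probe sets. The labels do not give the time of day at which each pool was collected. Immediate early genes were above 0 in 19 of 25 (median 0.21), but the 13 well-expressed ones had a median of 0.06. Fosl2, an AP-1 subunit, had 110.2, 209, 544 and 1136 and 1.01 (0.25 on its other probe set).

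Among bile acid genes (10 above 0, 14 below, median -0.06), Cyp8b1, which sets the share of cholic acid, had 5888, 5185, 11951 and 6042. P+E was the high array and E+E was near P+P, at -0.98. Cyp7a1, the rate-limiting enzyme of the pathway, had 7954, 6194, 150 and 161 and was low on both ethylbenzene arrays, at 0.08. Genes of PPAR-alpha and fatty acid oxidation were even, 15 above and 15 below with a median of 0.00, although Pdk4 is among them. Cdkn1a, the p53 target p21, was at -0.10, and the metallothioneins Mt1 and Mt2 at 0.00 and -0.03. Oxidative phosphorylation (24 of 31 below 0, median -0.06) and the proteasome (23 of 31 below 0, median -0.04) leaned by very small amounts and had no member past 1.5-fold.

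Markers of other liver cells are given as measured, and in whole-liver RNA fewer cells of a type and less RNA per cell cannot be told apart. Kupffer cell markers, of the resident macrophages, were above 0 in 11 of 14, with a median of 0.17 and none past 1.5-fold. Their summed signals were 22133, 32438, 18928 and 21950, so E+E was above P+E and close to P+P, and E+P was the highest. Clec4f, a lectin of mouse Kupffer cells, had 1855, 2759, 1689 and 2118 and 0.32, and Adgre1 (F4/80) 1325, 1895, 1071 and 1498 and 0.47. The 3 members below 0, none of them well-expressed, were Marco (-0.19 and -0.18 on its 2 probe sets), Timd4 (-0.16) and Msr1. The 3 probe sets of Msr1 ranged from -1.20 to 0.96. Cybb (1.23) and Ctsc (0.85), which macrophages also express, were higher on E+E by more than the median of the Kupffer list. Neutrophil markers passed the filter in 6 of 12, with 5 above 0, a median of 0.64 and sums of 1000, 883, 4457 and 6595. Of these 6, 2 were well-expressed, 1 was at least 2-fold higher (Ngp, 1.12) and 1 at least 2-fold lower (Csf3r). Each is 16.7% of the 6, against 3.98% and 3.99% of all genes. S100a8 had 116, 151, 1506 and 2348 and 0.63, and S100a9 125, 70.3, 2025 and 3183 and 0.64. Csf3r, the member below 0, had 98.1, 231, 554 and 248 and -1.04. Sinusoidal endothelial markers were below 0 in 8 of 12 (median -0.18), with the endothelial receptor gene Gpr182 at -0.75 and Lyve1 at 0.42, and stellate cell and matrix genes were above 0 in 9 of 13 (median 0.22). Pancreatic acinar genes had sums of 3140, 2756, 8678 and 8785, almost equal on P+E and E+E. The part of these cells in the differences of other genes was not tested.

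The first exposure was also compared in mice given PBS second, E+P over P+P, which uses the other pair of arrays. Of the well-expressed genes at least 1.5-fold higher, 312 in E+E over P+E (4.55%) and 217 in E+P over P+P (3.16%), 19 were shared (6.09% and 8.76% of the lists), and 25 of the 312 were 1.5-fold lower in E+P over P+P. Of those lower, 325 (4.74%) and 246 (3.59%), 20 were shared (6.15% and 8.13%), and 16 were opposite. Of the 94 genes past 2-fold in E+E over P+E, 47 had the same sign in E+P over P+P. At 2-fold both times, 1 gene was higher, Tifa (1.18 in E+P over P+P), and 4 were lower, of which G6pc and Csad are read by 1 probe set each. Csad had 6392, 3016, 7211 and 3566, with both arrays of a first ethylbenzene exposure well under both without it. The others, Ccdc180 (-1.19) and Lipg (-1.06), were lower on 1 of 3 and 1 of 2 probe sets. Lipg had an E+E signal of 92.3, under the filter level, and with low signals at that level its ratio was -0.79, short of 2-fold. Further genes higher both times at 1.5-fold included Ctsc, Fabp5, Lgmn (0.68), a lysosomal protease, and Ccnd1, a cyclin (0.94, 3 of 3 probe sets, from 0.11 to 0.94). Those lower both times at 1.5-fold included G0s2, Elovl3 (-0.88), a fatty acid elongase, Noct (-0.83), a clock-controlled gene, and Me1.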

How the data were processed

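The authors deposited intensities on a linear scale for 45101 probe sets on each of 4 Affymetrix arrays. They had been scaled, since all arrays shared a trimmed mean (2% off each end) of 500.0; the software was not given in the sources used here. Medians still differed (129.9, 134.1, 153.1 and 152.0 in the order P+P, E+P, P+E, E+E), so the signals were quantile-normalized over the 4 arrays and taken as log2(signal + 43.2), the 25th percentile of all signals. The added constant understates ratios of low signals, and normalization by rank compresses those of the most abundant transcripts. The number of arrays, 1 per group, limits the precision.

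Probe sets were named from the platform annotation and updated through Entrez identifiers to RefSeq symbols (34945 with 1 symbol, 932 with several, 9160 with none listed, 64 controls; 34741 updated). The probe set with the highest mean stood for a gene. The filter level was the median of all probe sets and the well-expressed level the 75th percentile. Near-identical genes (serum amyloid A, cytochrome P450, metallothionein, glutathione transferase) can share signal. Members without a probe set, 82 of 904 list genes, were not analysed here.

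Named genes were the 12 highest and 12 lowest well-expressed genes with agreeing probe sets at 1.5-fold and the 6 highest and 6 lowest with a single probe set at 2-fold. From each of the 48 lists, of 52, with 3 or more members past the filter, up to 3 members with the largest ratios were added. The rest were 20 fixed genes and the 2 nearest either side of 2-fold in each direction. Clones and predicted genes were left out. Other list members, genes at or above the 90th percentile and genes of both first-exposure comparisons were chosen after their values were seen. The members and lists were chosen with earlier results of these data known.

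Alternatives changed the normalization, the pseudocount, the filter, the summary over probe sets, the handling of low signals and the agreement rule. No test was run, because a group of 1 array leaves no residual degrees of freedom. Steps were tested on simulated data. Python 3.11.15, pandas 2.3.3, numpy 2.4.6, scipy 1.17.1 and matplotlib 3.10.9 were used.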

Additional observations from a re-analysis of the deposited data

Results flagged for a closer look

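For 3 of the named genes the ratio of a first exposure was at least 2-fold in one direction in the mice given ethylbenzene second and at least 2-fold in the other in those given PBS second; with 1 array per group the difference was not tested. Acta1, skeletal muscle actin, had signals of 28.3, 291, 1808 and 14.9 in the order P+P, E+P, P+E, E+E, and log2 ratios of -4.99 in E+E over P+E and 2.23 in E+P over P+P (-3.50 and 1.03 with low signals at the filter level). Ier3, an immediate early gene, was at 1.48 and -1.07 (1.48 and 0.00 with low signals at that level). Ngp, a neutrophil granule gene, was at 1.12 and -1.11.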

How the results depend on the processing

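No paired analysis was possible because each group was 1 pooled array, and no array could be left out. The counts of genes past 2-fold, 458 higher and 459 lower, were 176 and 188 with a pseudocount at the median signal, 1491 and 1556 with no filter, 44 and 50 with the filter at the 75th percentile, and 249 and 256 where signals under the filter level were raised to it. The well-expressed agreeing genes (6 higher, 4 lower) were 3 and 1 with the 75th percentile filter and 23 and 12 with the mean of the probe sets past the filter, and the lower ones were 1 with the pseudocount at the median signal. Over all alternatives 42 values changed sign. Under the mean of the probe sets 8 gene ratios and 6 list medians did, among them Ppargc1a (0.12), Fcgr1 (-0.45), Akt2 (-0.16), Cyp7a1 (-0.16) and the pericentral (0.0106) and monocyte (-0.27) lists; without probe sets that can match several transcripts, 7 and 3 did, among them Nudt16l1 (-0.66), Akt2 (-0.58) and Atp5c1 (0.47). Of 26 lists with a median of at least 0.1 in size, 24 kept its sign under every alternative, and the sterol list ranged from -0.50 to -0.31. Of 72 named genes at least 2-fold apart, 71 never changed sign. Most alternatives read a gene on the same probe set, where a large ratio can hardly change sign. The named genes were also chosen in part for agreeing probe sets or a single one, so this count is no check on the measurement. Centring on a loess curve over signal, added after the data were seen, gave 441 higher and 478 lower. With 1 pool per group, no difference can be set against the spread between mice, and ratios of signals near the filter level rest on little signal over background.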
